A study of Mus musculus with 48 samples.

Results

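The genes described here are those for the matrix metalloproteinases (MMPs), for the ADAMTS proteases, for the ADAMTS-like proteins that lack a catalytic domain, and for the tissue inhibitors of metalloproteinases (TIMPs). They were taken by symbol (*Mmp*, *Adamts*, *Adamtsl* or *Timp* followed by a number) among protein-coding genes, which gave 51 of the 56748 genes in the expression table, namely 23 *Mmp*, 19 *Adamts*, 5 *Adamtsl* and 4 *Timp* genes. No expression value entered that rule, although the family was chosen with earlier results of these data known. RNA-seq of mouse tibialis anterior muscle covered 48 libraries in 24 groups, with 2 mice in each group, and asked how a pancreatic tumor changes the daily course of gene expression and whether muscle FoxP1 is needed for it. The groups crossed 2 genotypes (WT and FoxP1SkmKO), 2 conditions (control and KPC) and 6 circadian times (CT18, CT22, CT26, CT30, CT34 and CT38), and the mice were males, 39 to 55 weeks old by the methods, although another passage of the study gives a younger age for the RNA-seq mice. KPC mice had received 250000 cells of a mouse pancreatic cancer line into the pancreas, and control mice had received saline there. In FoxP1SkmKO mice a floxed *Foxp1* allele is recombined by a Cre that the ACTA1 promoter drives in muscle fibers and not in the fibroblasts, vessels and leukocytes of the same muscle. The WT mice are described as C57BL/6J in one source and as floxed mice with no Cre in another. Light was on for 12 h of the day before the mice were moved to constant darkness, so CT0 to CT12 is the subjective day and CT12 to CT24 the subjective night, in which mice are active, and CT26 falls early in the next subjective day.

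MMPs and ADAMTS proteases are zinc enzymes that are secreted or held at the cell surface and cut the matrix between cells. Among them, MMP14 and MMP15 are anchored in the cell membrane, MMP2 and MMP9 are gelatinases that cut denatured collagen and basement membrane, and MMP13, MMP8 and MMP1A are collagenases. ADAMTS1, ADAMTS4, ADAMTS5, ADAMTS8, ADAMTS9 and ADAMTS15 belong to the proteases that cut proteoglycans such as versican and aggrecan, and ADAMTS2, ADAMTS3 and ADAMTS14 remove the amino-terminal propeptide of procollagens. TIMPs bind the active site of these enzymes, and TIMP2 also takes part in the activation of pro-MMP2 by MMP14 at the cell surface. In muscle most of these genes are known from cells of the matrix, vessels and immune system rather than from fibers, and gene activity is measured here as RNA, not as protease activity.

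The promoters of the family fell into separate kinds by their sequence. RefSeq start sites gave 250-base windows for 36 of the 51 genes, and each window lay at 1 place in GRCm39, the build of the deposited gene positions (the windows were listed on GRCm38.p6). The AP-1 site, searched as TGANTCA on both strands, was found in 8 of the 36 genes (22.2%) against 6.75% of all 32851 windows, and all 8 belong to a run of 10 *Mmp* genes on chromosome 9 (GRCm39, chr9:7272514-7699586). The 26 genes with a window outside the run had none. In *Mmp12* the site lay only in a window whose start is 2993 bases downstream of the deposited gene start. Of the run, *Mmp13*, *Mmp3*, *Mmp1a* and *Mmp10* are shown here because the site stands 35, 46, 73 and 63 bases before the start. Each is the plus strand of GRCm39, at chr9:7272264-7272513, chr9:7445572-7445821, chr9:7463891-7464140 and chr9:7502093-7502342, written 5′ to 3′, and capitals mark the letters of every motif found among the 7 that were searched, so that *Mmp13* also carries a forkhead site and *Mmp10* a ROR element, a forkhead site and a glucocorticoid receptor hexamer.
Mmp13: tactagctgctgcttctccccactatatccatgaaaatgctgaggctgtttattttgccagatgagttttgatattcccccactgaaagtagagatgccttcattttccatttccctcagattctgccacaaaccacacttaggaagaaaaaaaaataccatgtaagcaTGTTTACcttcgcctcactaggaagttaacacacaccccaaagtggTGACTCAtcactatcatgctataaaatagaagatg
Mmp3: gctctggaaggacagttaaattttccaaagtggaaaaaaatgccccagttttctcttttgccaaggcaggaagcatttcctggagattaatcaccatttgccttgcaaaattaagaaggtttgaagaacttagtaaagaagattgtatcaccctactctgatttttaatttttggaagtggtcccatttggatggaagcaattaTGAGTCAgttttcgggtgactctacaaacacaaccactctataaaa
Mmp1a: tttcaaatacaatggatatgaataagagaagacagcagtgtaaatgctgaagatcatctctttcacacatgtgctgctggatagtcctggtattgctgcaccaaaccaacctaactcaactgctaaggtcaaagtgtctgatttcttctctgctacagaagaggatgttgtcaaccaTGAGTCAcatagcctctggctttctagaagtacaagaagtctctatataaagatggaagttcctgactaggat
Mmp10: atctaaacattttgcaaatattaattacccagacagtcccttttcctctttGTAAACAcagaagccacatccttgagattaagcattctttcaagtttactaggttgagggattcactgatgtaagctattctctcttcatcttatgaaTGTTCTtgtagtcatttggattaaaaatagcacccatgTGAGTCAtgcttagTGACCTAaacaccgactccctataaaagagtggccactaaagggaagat

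The GC box, searched as GGGCGG on both strands, was found in 20 of the 36 genes (55.6%) against 32.7% of all windows, in 0 of the 10 genes of the chromosome 9 run and in 20 of the other 26. *Mmp14* (chr14:54668805-54669054, plus strand), *Adamtsl4* (chr3:95595229-95595478, minus strand) and *Adamts1* (chr16:85600002-85600251, minus strand) are shown because they are among the genes with a daily rhythm described below. *Timp4* (chr6:115229167-115229416, minus strand) is shown as a rhythmic gene whose window held none of the 7 motifs. Capitals again mark motif letters, here all of GC boxes.
Mmp14: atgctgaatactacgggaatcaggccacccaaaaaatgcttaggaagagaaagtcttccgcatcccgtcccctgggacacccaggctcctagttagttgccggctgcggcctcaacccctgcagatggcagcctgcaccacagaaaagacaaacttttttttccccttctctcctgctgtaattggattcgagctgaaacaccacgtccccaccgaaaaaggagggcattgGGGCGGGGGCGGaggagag
Adamtsl4: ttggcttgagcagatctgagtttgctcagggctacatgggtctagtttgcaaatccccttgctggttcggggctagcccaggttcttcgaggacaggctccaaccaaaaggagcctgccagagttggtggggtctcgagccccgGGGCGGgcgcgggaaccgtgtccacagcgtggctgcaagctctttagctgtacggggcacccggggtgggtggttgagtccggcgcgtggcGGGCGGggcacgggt
Adamts1: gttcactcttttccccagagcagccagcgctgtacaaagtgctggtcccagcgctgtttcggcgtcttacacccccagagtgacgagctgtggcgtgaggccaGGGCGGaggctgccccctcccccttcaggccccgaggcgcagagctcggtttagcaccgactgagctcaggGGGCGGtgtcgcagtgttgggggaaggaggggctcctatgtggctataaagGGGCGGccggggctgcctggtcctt
Timp4: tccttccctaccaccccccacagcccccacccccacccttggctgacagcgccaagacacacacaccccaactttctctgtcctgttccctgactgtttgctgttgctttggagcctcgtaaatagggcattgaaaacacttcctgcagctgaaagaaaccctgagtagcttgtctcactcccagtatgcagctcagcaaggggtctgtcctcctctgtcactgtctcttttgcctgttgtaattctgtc

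The 5 other motifs were rare in the family. The E-box CACGTG, which clock activators bind, was found in *Adamts17* and *Mmp7* (2 of 36 genes, 5.56%, against 6.02% of all windows). The D-box TTANGTAA was found in *Mmp12* (against 2.06%), the ROR element TAGGTCA in *Adamtsl5* and *Mmp10* (against 2.23%), the forkhead site TGTTTAC in *Mmp10* and *Mmp13* (against 3.17%), and the glucocorticoid receptor hexamer AGAACA in *Mmp10*, *Mmp11*, *Mmp23* and *Mmp7* (4 genes, 11.1%, against 16.1%). All were searched on both strands, and the matches of different motifs shown here did not overlap. In *Mmp7* the E-box and the hexamers lay only in a window whose start is 251 bases downstream of the deposited gene start. The only windows of *Mmp11* and *Adamts20*, both with GC boxes, start 3994 and 61068 bases downstream of theirs. A match is a description of these letters in this window and not a bound site.

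Transcript levels spanned the range from abundant to undetected. Levels are given as FPKM, fragments scaled to gene length and to library size, so that genes can be set beside each other. *Timp2* was the highest, with 15.1, 20.6 and 30.1 FPKM as its lowest, median and highest library of 48, followed by *Adamtsl5* (12.4, 15.4 and 19.6 FPKM), whose product binds fibrillin microfibrils. The lowest *Timp2* library lay above the highest library of every member but *Adamtsl5*. *Adamtsl4*, another microfibril-associated protein, had 4.91, 7.99 and 14 FPKM, *Timp3* 3.20, 8.11 and 12.7 FPKM, *Timp4* 3.80, 6.28 and 11.8 FPKM, the membrane protease *Mmp15* 4.62, 6.64 and 9.47 FPKM, and *Adamts1* 3.30, 6.79 and 9.12 FPKM. The ranges of those 5 genes overlapped, and their order does not exceed the spread between libraries. Lower in the order stood *Mmp2* (1.45, 3.40 and 7.47 FPKM), *Mmp14* (0.867, 2.07 and 3.82 FPKM) and *Adamts10*, a protease that acts on fibrillin (0.921, 1.35 and 1.94 FPKM). The plot of FPKM by library shows that *Mmp2* spread further on a log scale than its neighbours.

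**Figure D1:**
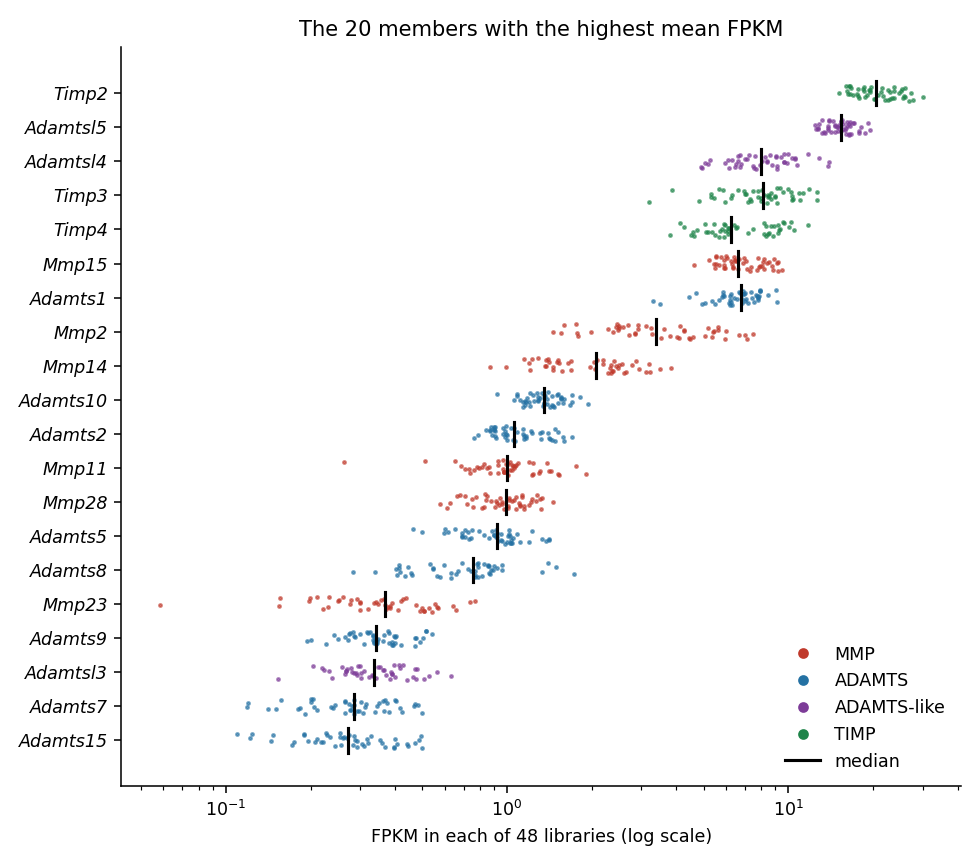
FPKM on a log axis for the 20 members with the highest mean, 1 point per library (48 libraries, all groups), with the median as a black bar and colors for the 4 families. *Timp2* and *Adamtsl5* stand above the rest, *Mmp2* spreads from 1.45 to 7.47 FPKM, and the members from *Adamts10* down have medians of 1.35 FPKM or less.

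Summed over family, inhibitors and ADAMTS-like proteins outweighed proteases in RNA. Of a summed mean of 89.65 FPKM, the 4 *Timp* genes held 40.7%, the 5 *Adamtsl* genes 27.0%, the 23 *Mmp* genes 17.9% and the 19 *Adamts* genes 14.4%. One gene held much of each sum, namely *Timp2* with 57.9% of the *Timp* sum, *Adamtsl5* with 63.3%, *Mmp15* with 43.7% and *Adamts1* with 51.1% of theirs. *Timp1*, the TIMP that is known to rise in inflamed tissue, was near the floor of detection, at 0 in 4 libraries and with a median of 0.149 and a highest value of 0.852 FPKM. Its median was 0.181 FPKM in WT control, 0.130 in WT KPC, 0.164 in FoxP1SkmKO control and 0.137 in FoxP1SkmKO KPC mice, with overlapping ranges, and it was among the 18 members whose counts were too low to test. *Timp1* to *Timp4* were measured at chrX:20736405-20740974, chr11:118191895-118246566, chr10:86136236-86185370 and chr6:115218853-115229166. *Timp1*, *Timp3* and *Timp4* lie within synapsin genes on the other strand, which were themselves at 0.0337 (*Syn1*), 0.0469 (*Syn3*) and 0.201 FPKM (*Syn2*).

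The 10 genes of the chromosome 9 run (*Mmp13*, *Mmp12*, *Mmp1b*, *Mmp3*, *Mmp1a*, *Mmp10*, *Mmp8*, *Mmp27*, *Mmp20* and *Mmp7*), which include the collagenases and stromelysins, together had 452 reads in all 48 libraries, between 0 and 123 for a gene. Of these, 3 had no read (*Mmp7*, *Mmp1a* and *Mmp1b*), 2 had 1 read, and only *Mmp13* passed the filter for testing. A count of 0 at this depth does not show absence. Of the 18 members that could not be tested, 9 are in this run, and the others are *Timp1*, *Adamts3*, *Adamts18*, *Adamts16*, *Adamts13*, *Mmp24*, *Mmp16*, *Mmp21* and *Adamts19*. The 33 tested members were 11 *Mmp*, 14 *Adamts*, 5 *Adamtsl* and 3 *Timp* genes.

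The libraries held between 14480867 and 20787784 counts on genes. The muscle fiber markers (7 genes, *Ckm* and *Acta1* among them) summed to between 52540 and 71390 FPKM in every library, whereas the markers of tumor epithelium (6 keratin and adhesion genes) summed to at most 2.687 FPKM, with *Krt7* and *Epcam* under a mean of 0.05 FPKM. *Foxp1* itself was at 0.630 ± 0.140 FPKM in WT control, 0.629 ± 0.102 in WT KPC, 0.578 ± 0.068 in FoxP1SkmKO control and 0.544 ± 0.074 FPKM in FoxP1SkmKO KPC mice (SD, n = 12 each), with overlapping ranges, so the gene total did not separate the genotypes and each library is taken as labelled. WT control CT26 replicate 1 and FoxP1SkmKO KPC CT18 replicate 2 stood furthest out on the third principal component of log2 CPM (6.42% of the variance). They lay at 2.86 and 2.84 median absolute deviations, and the calls of members that were lost without either of them are given below. On the fourth component (5.29%), FoxP1SkmKO control CT38 replicate 2 and FoxP1SkmKO KPC CT30 replicate 2 lay nearly as far out, at 2.83 and 2.55.

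More members were called with time of day than in any other comparison made here. A sinusoid with a period of 24 h, with 1 amplitude and peak shared by the 4 genotype and condition groups, was called (edgeR quasi-likelihood test, adjusted p under 0.05 over all genes) for 21 of the 33 tested members, whereas 34.9% of all 15637 genes were called. All 3 tested *Timp* genes were called, with 7 of 11 *Mmp*, 8 of 14 *Adamts* and 3 of 5 *Adamtsl* genes. Amplitudes, in log2 units from the mean to the peak, had a median of 0.32 among the called members and 0.16 among all called genes. The fitted peak fell between CT18 and CT24 for 12 of the 21 (57.1%, against 34% of all called genes) and between CT12 and CT18 for 7 (33.3%, against 15.8%). It fell in the subjective day for *Adamts1* and *Adamts7*, with 1 in CT6 to CT12 (4.76%, against 33.3%) and 1 in CT0 to CT6 (4.76%, against 16.9%). The late-night group held 6 *Mmp* genes, 4 *Adamts* genes, *Adamtsl5* and *Timp2*. Sampling covered 1 cycle, and a peak is given modulo 24 h. In the descriptions of single rhythmic genes below, the times compared are those at which the gene had its highest and lowest mean. These times were chosen from the same values that are then compared. A lack of overlap or a ratio of means therefore describes the range of a gene and is not a test. The share of all genes without overlap between such times is not given here.

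**Figure D2:**
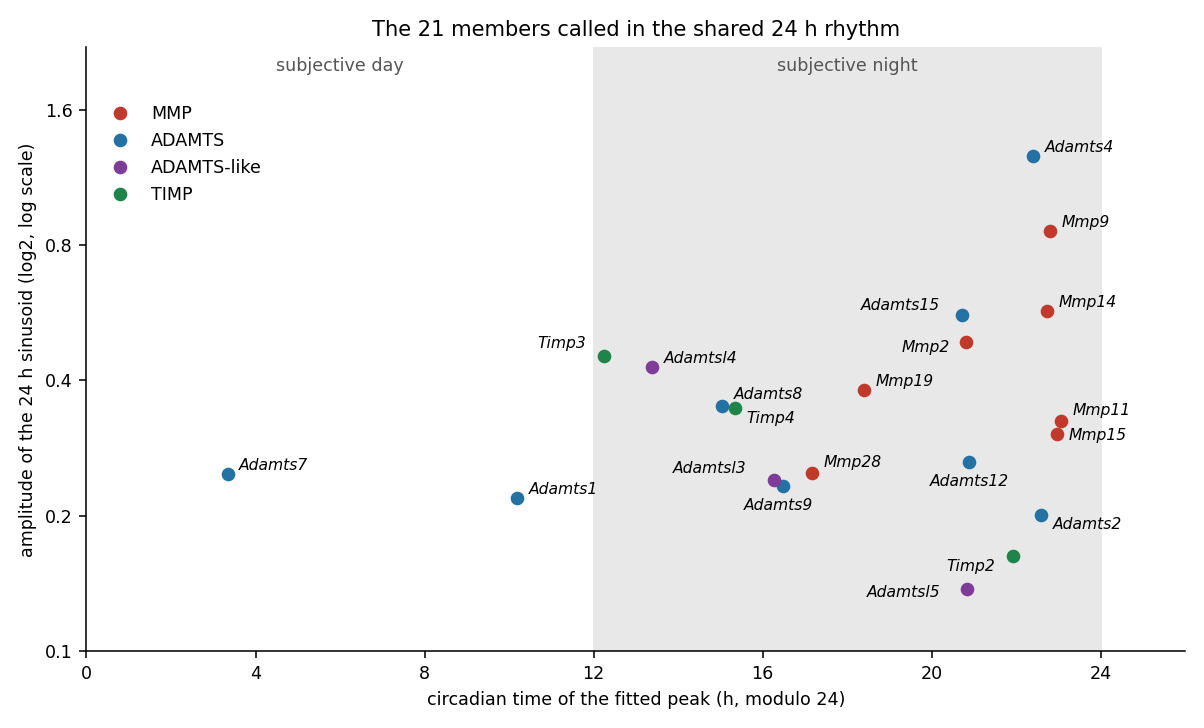
Fitted peak time (hours, modulo 24, subjective night shaded) against amplitude (log2, on a log axis) for the 21 members called in the shared 24 h rhythm, 1 point per gene and colors for the 4 families. Of the 21 points, 19 lie in the subjective night, with *Adamts4* at the largest amplitude of 1.26 and *Adamtsl5* at the smallest of 0.14.

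The membrane proteases *Mmp14* and *Mmp15* had called rhythms with fitted peaks late in the night, whereas *Mmp17* and *Mmp25*, which are also held at the membrane, were tested and not called (edgeR, adjusted p = 0.0683 and 0.636). *Mmp14* (chr14:54669069-54682821, promoter above) had 2.04, 2.52 and 3.502 FPKM as lowest, median and highest of 8 libraries at CT18, and 0.867, 1.21 and 1.57 FPKM at CT34. Every CT18 library lay above every CT34 library, and the means, 2.63 ± 0.449 and 1.25 ± 0.253 FPKM (SD, n = 8), differed by 2.11 times. Its fitted peak was CT22.73 with an amplitude of 0.57 (edgeR, adjusted p = 4.236e-10). *Mmp15* (chr8:96078896-96101708) had 7.85, 8.67 and 9.47 FPKM at CT22 and 5.22, 5.94 and 6.44 FPKM at CT38, again with no overlap and with means 1.47 times apart. Its fitted peak was CT22.96 with an amplitude of 0.30 (edgeR, adjusted p = 1.579e-12). Both genes were high at CT18 to CT26 and low at CT34 to CT38, as the plot of levels by circadian time shows.

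The gelatinases kept a similar time but varied more between mice. *Mmp2* (chr8:93553919-93580048) had 2.50, 5.97 and 7.13 FPKM at CT18 and 1.45, 2.04 and 4.60 FPKM at CT34. These ranges overlapped, although the means, 5.41 ± 1.86 and 2.47 ± 1.14 FPKM (SD, n = 8), differed by 2.19 times, and the fit peaked at CT20.81 with an amplitude of 0.49 (edgeR, adjusted p = 1.573e-04). The 2 FoxP1SkmKO KPC libraries at CT18 were the low ones at that time, with 2.50 and 2.58 FPKM. *Mmp9* (chr2:164782700-164797770) was far lower, with 0.209, 0.297 and 0.525 FPKM at CT18 and 0.0347, 0.0977 and 0.136 FPKM at CT34. Its ranges did not overlap, and it peaked at CT22.80 with an amplitude of 0.86 (edgeR, adjusted p = 5.015e-04). *Mmp9* is also a marker of neutrophils and was in the list of neutrophil markers used here.

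Of the other MMPs, *Mmp11* (stromelysin-3) peaked at CT23.07 with an amplitude of 0.32 (edgeR, adjusted p = 1.468e-03), *Mmp28* at CT17.16 with 0.25 (adjusted p = 1.73e-03) and *Mmp19* at CT18.39 with 0.38 (adjusted p = 0.037). The call of *Mmp19* was lost without any 1 of 10 libraries. Among them were FoxP1SkmKO KPC CT18 replicate 2 (amplitude 0.35, edgeR adjusted p = 0.0706) and FoxP1SkmKO KPC CT30 replicate 2 (amplitude 0.35, adjusted p = 0.06). *Mmp11* read 1.02, 1.29 and 1.91 FPKM at CT26 and 0.509, 0.834 and 1.08 FPKM at CT34, which overlapped. It shares 3367 bases with *Chchd10* on the other strand, a gene at 223.5 FPKM whose own rhythm had an amplitude of 0.10 and a peak at CT0.67 (edgeR, adjusted p = 0.0218), and since strandedness is not given the reads of the pair cannot be told apart. Summed over the 23 *Mmp* genes, FPKM was 18.93 ± 3.18 at CT18, 19.26 ± 2.53 at CT22 and 17.89 ± 2.24 at CT26, and 14.18 ± 2.35 at CT30, 12.18 ± 1.99 at CT34 and 13.66 ± 1.53 at CT38 (SD, n = 8). The sum, of which *Mmp15* and *Mmp2* make up the larger share, had its 3 highest means at CT18 to CT26 and its 3 lowest at CT30 to CT38.

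Of the proteases that cut proteoglycans, *Adamts1*, *Adamts4*, *Adamts8*, *Adamts9* and *Adamts15* had called rhythms, and *Adamts5* was not called (edgeR, adjusted p = 0.0684). *Adamts4* (chr1:171077990-171088206) had the largest amplitude of the family, 1.26, with a peak at CT22.41 (edgeR, adjusted p = 2.86e-07). It read 0.0988, 0.257 and 0.350 FPKM at CT22 and 0, 0.0128 and 0.0811 FPKM at CT34, with no overlap and means 10.5 times apart. The gene had at most 41 reads in a library and 0 in 4 libraries, and since strandedness is not given its reads cannot be assigned to its own strand. *Adamts15* (chr9:30810451-30833748) peaked at CT20.72 with an amplitude of 0.56 (edgeR, adjusted p = 5.191e-09), from 0.273, 0.397 and 0.494 FPKM at CT22 to 0.110, 0.181 and 0.283 FPKM at CT34, where the highest CT34 library overlapped the lowest CT22 library. *Adamts1* (chr16:85590715-85600001), the most abundant ADAMTS gene, had its peak in the late subjective day, at CT10.19, with an amplitude of 0.22 (edgeR, adjusted p = 1.287e-03). It read 6.24, 7.18 and 9.12 FPKM at CT38 and 3.30, 5.58 and 6.99 FPKM at CT22, with overlap.

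The remaining ADAMTS genes with a called rhythm had amplitudes of 0.20 to 0.35. *Adamts2*, a procollagen propeptidase, peaked at CT22.59 (amplitude 0.20, edgeR adjusted p = 5.876e-03), *Adamts12* at CT20.89 (0.26, 0.0138), *Adamts9* at CT16.48 (0.23, 7.053e-03), *Adamts8* at CT15.05 (0.35, 0.0129) and *Adamts7*, which cuts cartilage oligomeric matrix protein, at CT3.34 (0.25, 0.0461). The call of *Adamts7* held in 29 of 61 alternative settings and was lost without any 1 of 26 libraries, WT control CT26 replicate 1 among them (adjusted p = 0.0848), whereas *Adamts2*, *Adamts12*, *Adamts9* and *Adamts8* held in 59 or 60 of 61. *Adamts2*, *Mmp28* and *Mmp19* also overlap genes on the other strand, *Gm12199* at 5.216 FPKM, *1700020L24Rik* at 1.043 FPKM and *Tmem198b* at 1.026 FPKM, none of which was called in the rhythm (adjusted p = 0.182, 0.168 and 0.0686). *Adamts10*, *Adamts5* and the others of the 14 tested ADAMTS genes were not called. For *Adamts10* the amplitude was 0.07 (edgeR, adjusted p = 0.412).

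The inhibitors peaked from the start of the night to its end. *Timp3* (chr10:86136236-86185370), which is bound to the matrix and also inhibits ADAMTS proteases, had 8.96, 11.2 and 12.7 FPKM at CT34 and 3.20, 5.31 and 7.09 FPKM at CT26. The ranges did not overlap and the means, 10.93 ± 1.49 and 5.21 ± 1.26 FPKM (SD, n = 8), were 2.1 times apart. It peaked at CT12.24, about the start of the night, with an amplitude of 0.45 (edgeR, adjusted p = 5.142e-10), so *Timp3* was highest at CT34, the time at which *Mmp14* was lowest. *Timp4* (promoter above), a TIMP known for expression in striated muscle, read 8.33, 9.23 and 10.5 FPKM at CT38 and 3.80, 5.28 and 6.58 FPKM at CT30, with no overlap. Its peak was CT15.34 with an amplitude of 0.35 (edgeR, adjusted p = 1.372e-04). *Timp2* (chr11:118191895-118246566) in contrast peaked at CT21.92 with a small amplitude of 0.16 (edgeR, adjusted p = 8.711e-03), from 17.6, 26.4 and 30.1 FPKM at CT18 to 16.1, 17.2 and 25.5 FPKM at CT34, with overlap. Differences between the genes' peak times were not tested.

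*Adamtsl4* (chr3:95583511-95595228, promoter above) peaked near *Timp3*. It had 9.62, 10.7 and 14 FPKM at CT38 and 4.91, 5.22 and 9.01 FPKM at CT26, with no overlap, and peaked at CT13.38 with an amplitude of 0.43 (edgeR, adjusted p = 2.639e-10). *Adamtsl5* (chr10:80174944-80184246) varied less, from 14.98, 16.8 and 19.2 FPKM at CT18 to 12.4, 13.3 and 14.6 FPKM at CT30, also with no overlap, and peaked at CT20.85 with an amplitude of 0.14 (edgeR, adjusted p = 3.347e-04). *Adamtsl3* peaked at CT16.27 with an amplitude of 0.24 (edgeR, adjusted p = 0.0319), and its call held in 52 of 61 alternative settings but not without WT control CT26 replicate 1 (adjusted p = 0.0548). *Adamtsl1* and *Adamtsl2* were not called.

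**Figure D3:**
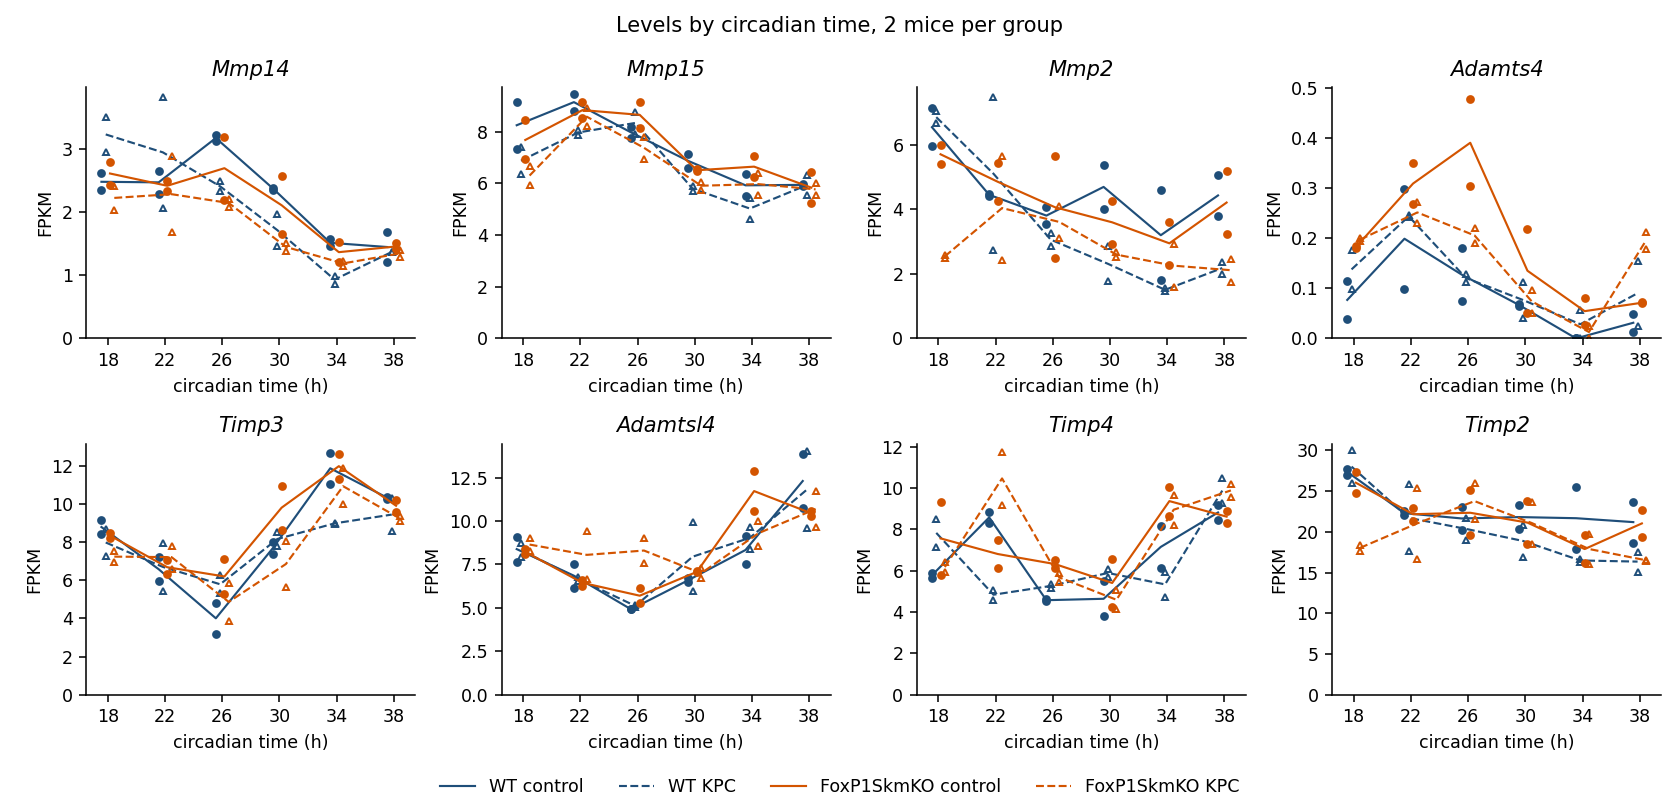
FPKM against circadian time (hours) for 8 members, with filled circles for control and open triangles for KPC mice, blue for WT and orange for FoxP1SkmKO, 1 symbol per mouse and lines through the mean of 2 mice (solid for control, dashed for KPC). *Mmp14* and *Mmp15* fall from CT26 to CT34 in each group, *Timp3* is lowest at CT26 and *Adamtsl4* at CT26 or CT30, both are high at CT34 to CT38, and *Timp4* in WT KPC mice is at 4.60 and 5.08 FPKM at CT22, below the other groups.

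GC boxes were common among the rhythmic members and among the tested members alike. Of the 21 rhythmic members 14 had a window, and 12 of them (85.7%) held a GC box, as did 4 of the 7 tested members with a window that were not called (57.1%), which makes 16 of 21 tested members (76.2%), against 32.7% of all windows. The difference between called and other members was not tested. The E-box, D-box, AP-1 and forkhead motifs were in 0 of those 14 windows, the ROR element in 1 (*Adamtsl5*) and the glucocorticoid receptor hexamer in 1 (*Mmp11*). These counts include the windows of *Mmp11* and *Adamts20*, which start far downstream of the deposited gene start, as given above.

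Markers of other cell types in the muscle also changed with time of day, and a bulk library cannot tell fewer cells of a type from less RNA per cell. All 8 macrophage markers were called in the shared rhythm, with peaks from CT20.03 to CT21.50, *Csf1r* with an amplitude of 0.78, *C1qa* with 0.70 and *Adgre1* with 0.92. Their sum had medians of 35.15 FPKM (29.12 to 69.99) at CT18, 36.71 (26.41 to 57.0) at CT22, 33.7 (27.84 to 41.18) at CT26, 20.61 (13.57 to 39.99) at CT30, 16.65 (12.61 to 26.08) at CT34 and 24.01 (16.72 to 38.0) at CT38. Fibroblast markers were called for 6 of 8 (*Pdgfra* with an amplitude of 0.57 and a peak at CT20.15). Their sum had medians of 80.18 FPKM (28.8 to 91.88) at CT18, 66.31 (34.6 to 94.73) at CT22 and 50.9 (38.15 to 85.47) at CT26. It had 47.6 (29.02 to 101.9) at CT30, 33.49 (23.03 to 76.98) at CT34 and 44.5 FPKM (31.35 to 92.27) at CT38. Endothelial markers were called for 6 of 7, smooth muscle and pericyte markers for 3 of 6, satellite cell markers for 1 of 5 and adipocyte markers for 1 of 6. Tendon markers were called for 0 of 6, Schwann cell markers for 0 of 5 and muscle fiber markers for 4 of 7, the last with amplitudes of 0.08 to 0.10. Of all genes, 34.9% were called. The macrophage sum was higher at CT18 to CT26 than later, as were *Mmp14* and *Mmp9*. The fibroblast sum, like the mean of *Mmp2*, fell from CT18 through CT34. Higher sums at CT18 to CT26 were not particular to these lists. Endothelial markers had median sums of 75.78, 83.31 and 84.41 FPKM at CT18, CT22 and CT26. They had 71.22, 65.26 and 69.01 FPKM at CT30, CT34 and CT38. Erythroid markers, called for 3 of 5, had 228.3, 191.5 and 205.5, then 147.4, 146.2 and 157.7 FPKM. Neutrophil markers, *Mmp9* among them, were called for 2 of 4 tested. Smooth muscle and pericyte markers did not follow that course, with median sums of 89.93 FPKM at CT18 and 96.0 FPKM at CT34. The part of these cell types in the rhythm of the proteases was not tested. *Timp3* and *Adamtsl4* had their highest means at CT34 and CT38, when the macrophage and fibroblast sums were lower.

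Within single groups of 12 libraries the test has less to rest on. A sinusoid fitted to FPKM in WT control mice had an unadjusted p under 0.01 for 5 of 46 members whose values varied (*Mmp14*, *Mmp15*, *Timp3*, *Adamtsl4* and *Mmp17*), against 4.92% of all genes. In WT KPC mice these were 9 of 46 (*Mmp14*, *Mmp15*, *Timp3*, *Adamtsl4*, *Adamts4*, *Adamts14*, *Adamts15*, *Mmp11* and *Mmp28*), against 4.22%. In FoxP1SkmKO control mice these were 4 of 46 (*Mmp15*, *Timp3*, *Adamtsl4* and *Adamts4*), against 4.07%, and in FoxP1SkmKO KPC mice 6 of 46 (*Mmp14*, *Mmp15*, *Timp3*, *Adamts4*, *Adamts7* and *Adamts15*), against 2.63%. *Mmp15* and *Timp3* were on each of the 4 lists, with peaks at CT22.43 to CT23.25 and CT10.92 to CT12.61. The lists differ, but the difference in rhythm between KPC and control mice was itself tested on FPKM, and no member was called in WT (0% of all genes called) or in FoxP1SkmKO mice (0% of all genes called). An unadjusted p under 0.05 was reached by 6 of 47 members in WT, against 5.07% of all genes, and by 3 of 47 in FoxP1SkmKO mice, against 5.09%. A p that misses the threshold does not show that the rhythms are alike.

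Averaged over the 6 times, no member passed the threshold for an effect of the tumor. In WT mice 0 of 33 members were called for KPC against control (edgeR; 1.79% of all genes were called), 7 of 33 had an unadjusted p under 0.05 against 15.2% of all genes, and DESeq2 also called 0. In FoxP1SkmKO mice 0 of 33 were called (0.428% of all genes), 8 of 33 had an unadjusted p under 0.05 against 12.4% of all genes, and DESeq2 called 0. Over the members the median log2 fold change was -0.12 in WT (10 of 33 higher, against 50.6% of all genes) and -0.15 in FoxP1SkmKO mice (9 of 33 higher, against 51.8%), whereas the medians over all genes were 0.00 in both. By time in WT mice, the members' median was 0.06 at CT18 (22 of 33 higher) and 0.05 at CT26 (19 of 33 higher), and it was -0.04 at CT22, -0.21 at CT30, -0.32 at CT34 and -0.15 at CT38. *Mmp2* had 1.79, 4.45 and 7.13 FPKM as lowest, median and highest of 12 WT control libraries and 1.45, 2.79 and 7.47 FPKM in WT KPC libraries, which overlapped over nearly the whole range. Its log2 fold change was -0.53 ± 0.17 (SE; edgeR, adjusted p = 0.0933) in WT, and -0.57 ± 0.17 (adjusted p = 0.101) in FoxP1SkmKO mice, where the libraries read 2.28, 4.26 and 6.00 FPKM in control and 1.59, 2.54 and 5.63 FPKM in KPC mice. Neither passed the threshold. *Mmp2* passed it without CT22 in both genotypes (adjusted p = 0.0211 in WT and 0.0374 in FoxP1SkmKO mice), with no filter on low counts in both, and without WT control CT34 replicate 2 or WT KPC CT22 replicate 2 in WT (adjusted p = 0.0422 and 0.0208) and FoxP1SkmKO control CT26 replicate 1 or FoxP1SkmKO KPC CT22 replicate 1 in FoxP1SkmKO mice (adjusted p = 0.0366 and 0.0224). The control and KPC values of the genotypes come from separate mice.

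**Figure D4:**
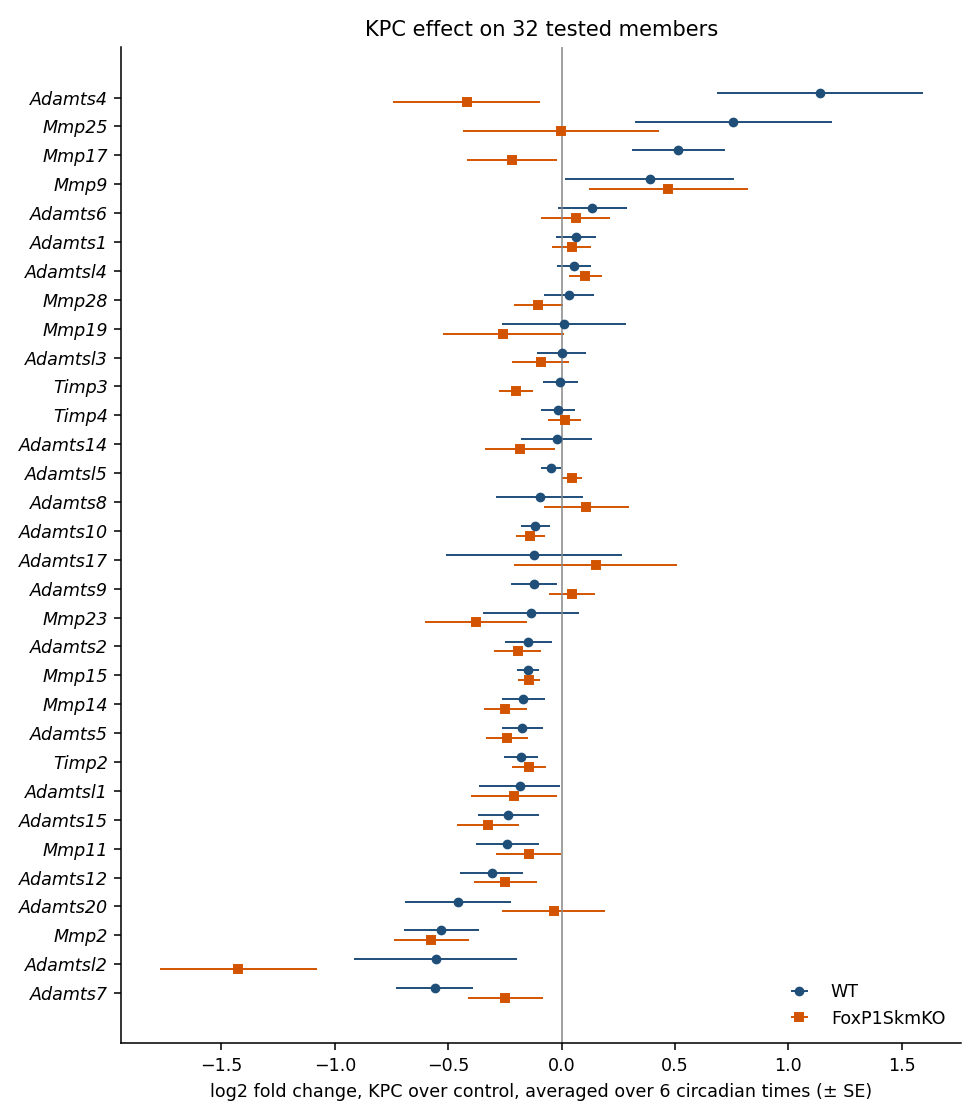
Log2 fold change of KPC over control averaged over 6 circadian times, with the standard error as bars, for 32 tested members in WT (blue circles) and FoxP1SkmKO mice (orange squares). *Mmp13* is left out because several of its groups had no read. No point passed the adjusted threshold of 0.05, and *Mmp2* lay at -0.53 and -0.57 in the 2 genotypes.

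Among the other members, *Adamts7* was nearest to the threshold in WT, at a log2 fold change of -0.56 ± 0.17 (SE; edgeR, adjusted p = 0.0825), from 0.191, 0.303 and 0.499 FPKM in control to 0.119, 0.209 and 0.415 FPKM in KPC mice. *Adamtsl2*, a regulator of the microfibril niche of TGF-beta, was nearest in FoxP1SkmKO mice, at -1.43 ± 0.35 (SE; edgeR, adjusted p = 0.0553), from 0.0491, 0.103 and 0.224 FPKM to 0, 0.0458 and 0.129 FPKM. Both are low genes with few reads, and leaving out any 1 of 12 libraries brought *Adamtsl2* under the threshold. *Adamts7* overlaps *Tbc1d2b* on the other strand, which fell by 0.33 with KPC in FoxP1SkmKO mice (edgeR, adjusted p = 0.0239) and differed by 0.04 in WT (adjusted p = 0.837). *Timp2* was at -0.18 ± 0.07 in WT (SE; edgeR, adjusted p = 0.230) and *Timp3* at -0.20 ± 0.08 in FoxP1SkmKO mice (adjusted p = 0.240), while *Mmp15* was at -0.15 ± 0.05 and -0.14 ± 0.05 in the respective genotypes (adjusted p = 0.117 and 0.180).

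Some markers of matrix cells fell in KPC mice. Collagen genes among the fibroblast markers fell in WT (3 of 8 called, *Col1a1* by 0.91, *Col1a2* by 0.80 and *Col3a1* by 0.71 on the log2 scale; edgeR, adjusted p = 0.0188, 0.0207 and 0.0255), and 1 of 8 fell in FoxP1SkmKO mice (*Lum* by 0.79, adjusted p = 0.0231). The summed fibroblast markers had medians of 66.49 FPKM (34.71 to 101.9) in WT control, 41.11 (23.03 to 93.23) in WT KPC, 61.64 (32.26 to 85.47) in FoxP1SkmKO control and 35.26 FPKM (27.04 to 94.73) in FoxP1SkmKO KPC mice. Of 6 tendon markers 1 fell in WT (*Tnmd* by 1.42, adjusted p = 0.0348), and of the 4 tested neutrophil markers *S100a8* rose by 2.83 and *S100a9* by 2.06 (adjusted p = 0.0315 and 0.0269), whereas *Mmp9* was not called. The part of these cell types in the values of *Mmp2* was not tested.

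The change of the tumor effect with genotype was tested as an interaction, and 0 of 33 members were called (0% of all genes; DESeq2 also 0). *Adamts4* (difference of 1.56 in log2, WT minus FoxP1SkmKO, unadjusted p = 0.00876 from edgeR) and *Mmp17*, a membrane-anchored MMP (0.73, unadjusted p = 0.0156), had unadjusted p under 0.05 (6.52% of all genes did), with an adjusted p of 0.764 for both. The difference for *Adamts4* includes WT control mice at CT34, both with 0 reads, and the WT tumor effect of 1.14 in it was 0.52 without CT34.

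Between FoxP1SkmKO and WT mice without tumors, 1 member differed. *Adamts4* was called higher in FoxP1SkmKO than in WT control mice (1 of 33 members; 3.44% of all genes called), with 0.0276, 0.182 and 0.477 FPKM as lowest, median and highest of 12 libraries against 0, 0.0668 and 0.299 FPKM. By time, FoxP1SkmKO control mice had 0.268 and 0.350 FPKM at CT22 and 0.303 and 0.477 FPKM at CT26, and WT control mice had 0.299 and 0.0988 FPKM at CT22 and 0.180 and 0.0745 FPKM at CT26. Both WT control libraries at CT34 had 0 reads, so the fitted log2 fold change of 1.78 ± 0.41 (SE; edgeR, adjusted p = 0.0113) depends on the prior count. Without CT34 it was 1.101 (adjusted p = 0.0472). The ratio of mean FPKM over all 12 libraries a group, CT34 included, was 2.28. The call was lost without FoxP1SkmKO control CT34 replicate 2 (adjusted p = 0.0764). In KPC mice 0 of 33 members were called between the genotypes (0.32% of all genes; 4 of 33 members had an unadjusted p under 0.05 against 10.8% of all genes, DESeq2 0), and *Adamts4* there read 0, 0.193 and 0.272 FPKM in FoxP1SkmKO and 0, 0.113 and 0.245 FPKM in WT mice.

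At single times the tumor effect was tested in 12 contrasts of 2 against 2 mice, and 1 member was called in 1 of them (0.605% of all gene and contrast pairs were called). *Adamts1* was higher in WT KPC mice at CT26, with 7.79 and 6.21 FPKM against 3.51 and 5.04 FPKM in WT control mice, a log2 fold change of 0.71 ± 0.22 (SE; edgeR, adjusted p = 0.0408), which was 0.67 (adjusted p = 0.0918) with the dependence on gene length taken out. In that contrast 7.17% of all genes were called, more than the average over the contrasts, and it rests on a WT control library that stood apart from the others. Without that library, WT control CT26 replicate 1, the log2 fold change was 0.46 (adjusted p = 0.518), and the call was also lost without either WT KPC mouse (adjusted p = 0.294 and 0.056).

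A test of whether the tumor effect changes between times called 1 of 33 members in WT (0.883% of all genes) and 0 in FoxP1SkmKO mice (0% of all genes; 6 of 33 members had an unadjusted p under 0.05 against 9.76% of all genes, DESeq2 0). The member called was *Timp4* (edgeR, adjusted p = 0.0243), and its call was lost without WT control CT26 replicate 1 (adjusted p = 0.284). At CT22 it had 8.32 and 8.85 FPKM in WT control and 4.60 and 5.08 FPKM in WT KPC mice, a log2 fold change of -0.83 ± 0.18 (SE), whereas in FoxP1SkmKO mice it had 7.51 and 6.11 FPKM in control and 11.8 and 9.20 FPKM in KPC mice, a log2 fold change of 0.62. The WT effect was 0.43 at CT18, 0.20 at CT26, 0.35 at CT30, -0.41 at CT34 and 0.17 at CT38. The difference of this time course between the genotypes was not tested, and no single time passed the adjusted threshold for *Timp4* (adjusted p = 0.412 at CT22 in WT).

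Some of the genes that work with these proteases were called with time of day, against 34.9% of all genes. Among matrix substrates and partners, 9 of 14 tested genes were called in the shared rhythm, *Fbn1* (fibrillin-1, bound by ADAMTS-like proteins) with a peak at CT23.54 and an amplitude of 0.59 and *Vcan* (versican, cut by ADAMTS1, ADAMTS4 and ADAMTS15) with a peak at CT20.84 and an amplitude of 0.53 (edgeR, adjusted p = 3.505e-08 and 3.954e-04). With KPC, 3 of these 14 were called in WT, *Col1a1* and *Col3a1* lower and *Vwf*, the substrate of ADAMTS13, higher by 0.36 (adjusted p = 2.421e-03), and 0 in FoxP1SkmKO mice. Of 17 tested regulators of matrix proteolysis, 9 were called in the rhythm. *Furin*, a convertase that activates membrane-type MMPs, peaked at CT22.75 with an amplitude of 0.14 (edgeR, adjusted p = 3.83e-05) and *Plau*, the urokinase that makes plasmin, at CT19.91 with 0.44 (adjusted p = 2.826e-05). With KPC, *Adam19*, a membrane protease, fell by 0.54 in FoxP1SkmKO mice (adjusted p = 0.0405), and no regulator was called in WT mice.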

How the data were processed

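Poly-A RNA of tibialis anterior muscle from 48 mice was sequenced in paired-end reads on a NovaSeq instrument. The methods name STAR and HTSeq on mm39 as the authors' aligner and counter, the submitters' processing notes name HISAT2 2.0.5 and DESeq2 1.20.0, and the strandedness of the counts is not given in the sources used here. The authors deposited raw counts per gene, a normalized signal (counts divided by the size factors of 4 libraries, which was not used here) and FPKM made from the counts and gene lengths. Their log2 fold changes and p-values for the 12 comparisons of KPC with control mice were deposited too and were not used. Each of the 12 deposited count tables omits genes with no more than 1 read in its libraries, so 28541 values of 1 read were restored from FPKM, and each came out whole to within 9.2e-14.

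Groups came from the sample labels. A quasi-likelihood model with 1 coefficient for each of the 24 groups was fitted to all 48 libraries with edgeR 4.0.16 in R 4.3.3 (TMM, filterByExpr, 15637 genes kept, 24 residual degrees of freedom), contrasts of coefficients were tested, and p-values were adjusted by Benjamini-Hochberg over all genes, with 0.05 as the threshold. The shared rhythm was tested with a cosine and a sine of period 24 h beside 4 group means. Standard errors rest on the spread between mice, pooled over groups, and the log2 fold changes carry edgeR's prior count. Rhythms within a group were fitted to FPKM by least squares in Python 3.11.15 with numpy 2.4.6, scipy 1.17.1 and pandas 2.3.3, with an unadjusted p under 0.01 as the threshold. Both kinds of test were tested on simulated data with known answers. Promoter windows came from a RefSeq table, whose sequence beyond the start site was left out. Some results on genes other than the members are not reported here.

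Named genes were, by rule, members called in any comparison, the 4 *Timp* genes and the 10 members with the highest mean FPKM, with 2 to 4 examples of each marker list, and members nearest to the threshold were named after their values were seen. The members, gene lists and tests were chosen with earlier results of these data known. Alternatives were DESeq2 1.42.0, no filter on low counts, RLE factors, limma 3.58.1 on log2(FPKM + 1) and log2(FPKM + 0.1), a fit with each library's dependence on gene length taken out, the replicate number as a block, each time and each library left out, and for rhythms within a group log2 values, an adjusted threshold and a mean FPKM of at least 1. Leaving out libraries for the tumor effect in WT at CT26 and for its change with time in WT was added after seeing the data.

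Replicates of same-numbered mice were not paired by the labels, and the differences between replicate 1 and 2 correlated between groups of the same time with a median of -0.00914.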

Additional observations from a re-analysis of the deposited data

Results flagged for a closer look

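*Timp4* was the 1 member whose tumor effect differed between circadian times in WT mice by a test of that difference, an interaction of condition and time with 5 degrees of freedom (edgeR quasi-likelihood test, adjusted p = 0.0243). The log2 fold change of KPC over control was -0.83 at CT22 and -0.41 at CT34, and between 0.17 and 0.43 at the 4 other times. DESeq2 gave an adjusted p of 1.05e-04. With 2 mice a group, the call was lost without any 1 of 8 libraries, with an adjusted p of up to 0.284. These were both WT control and both WT KPC libraries at CT22, WT control CT26 replicate 1, both WT KPC libraries at CT26 and WT KPC CT18 replicate 1. Groups of 2 mice do not allow a test of single libraries as outliers.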

How the results depend on the processing

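The number of members called in the shared rhythm stayed between 17 and 23 under all alternatives run, against 21, and between 18 and 22 with any 1 library left out. Of the 21 members, 13 were called in each of 61 settings, with peaks that moved by at most 1.92 h, and *Adamts7* (29 of 61), *Mmp19* (49 of 61) and *Adamtsl3* (52 of 61) were lost most often. With no filter on low counts, members called rose to 4 for KPC in WT, 4 for KPC in FoxP1SkmKO mice, 4 for genotype in control mice and 2 for genotype in KPC mice. The cause was not tested, but more genes with few reads then enter the spread estimates. Omitting CT22 gave 1 member for KPC in WT (255 of 15637 genes), 3 for KPC in FoxP1SkmKO (175) and 1 for genotype in KPC mice (124). Removing the length trend gave 1 for KPC in FoxP1SkmKO mice (83 genes). Leaving out 1 library gave 0 to 1 for KPC in WT (1 without WT control CT34 replicate 2, WT KPC CT22 replicate 2 or WT KPC CT26 replicate 2), 0 to 2 for KPC in FoxP1SkmKO mice (2 without FoxP1SkmKO control CT26 replicate 1 or FoxP1SkmKO KPC CT22 replicate 1), 0 to 1 for genotype in control mice (0 without FoxP1SkmKO control CT34 replicate 2), 0 to 1 for genotype in KPC mice (1 without WT KPC CT22 replicate 1), 0 to 1 for the change of the tumor effect with time in WT and 0 to 2 for the tumor effect in WT at CT26. Of all 15637 genes, leaving out 1 library gave 72 to 417 for KPC in WT and 17 to 236 for KPC in FoxP1SkmKO mice. It gave 316 to 768 for genotype in control mice and 17 to 203 for genotype in KPC mice. For the change with time in WT it gave 1 to 218 genes, and for WT at CT26 89 to 1364. DESeq2 called 2 members over the 12 contrasts at single times. The interaction of tumor and genotype stayed at 0 in every setting.

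Within groups, an adjusted threshold left 1 of 46 members in WT control (150 of 27209 genes) and 0 in WT KPC mice (130 of 27396 genes). It left 1 in FoxP1SkmKO control (119 of 28711 genes) and 0 in FoxP1SkmKO KPC mice (33 of 28430 genes), so few genes of any kind passed it. A mean FPKM of at least 1 kept 12 members and 10007 genes in the test. Of those 12 members 4, 5, 3 and 3 were called in that order of groups, against 1053, 885, 920 and 564 genes. Leaving out 1 library gave 4 to 6, 5 to 8, 3 to 5 and 3 to 7 members in the same order. Over all genes it gave 987 to 1305, 823 to 1243, 942 to 1263 and 610 to 735. Over all genes, KPC in WT called 280 genes and 794 with no filter, 133 without CT26, 127 without CT30, 105 without CT34 and 166 and 173 with limma. KPC in FoxP1SkmKO mice called 67 genes and 527 with no filter, 170 with DESeq2, 22 and 20 with limma, and 1, 175, 12 and 7 without CT18, CT22, CT30 and CT38. Genotype in control mice called 538 genes, 933 with no filter, 303 without CT18 and 312 without CT38. Genotype in KPC mice called 50 genes, 470 with no filter, 117 with DESeq2, 28 with limma on either scale, and 19, 124, 0, 17 and 16 without CT18, CT22, CT30, CT34 and CT38. The interaction called 104 genes with no filter against 0. The change of the effect with time called 138 genes in WT, 361 with DESeq2, 806 with no filter and 28 with the length trend removed, and 0 in FoxP1SkmKO mice, 58 with DESeq2 and 905 with no filter. The effect in WT at CT26 called 1121 genes and 406 with the length trend removed.

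With the replicate number as a block, the members called were 21 for the shared rhythm, 0 for KPC in WT, 0 for KPC in FoxP1SkmKO mice, 0 for the interaction, 1 for genotype in control mice and 0 for genotype in KPC mice, and no call of a member changed. Correlations between same-numbered mice of groups at the same time ran from -0.101 to 0.216, with 1 of 36 over 0.1. They gave no sign that the replicate numbers pair the mice, but they cannot exclude a weak pairing. With 2 mice a group, effects of low genes such as *Adamts4* and *Adamtsl2* rest on few reads.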
